A study of Mus musculus with 6 samples.

Results

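The PPAR, ERR and PGC-1 regulators of energy metabolism were followed in primary mouse cardiomyocytes in which the Rit1 M90I variant was switched on. They were the rows of the expression table whose Ensembl gene ID maps in GENCODE M21 to the symbols Ppargc1a, Ppargc1b, Ppara, Ppard, Pparg, Esrra, Esrrb, Esrrg, Nrf1 and Tfam, 10 of 54532 genes listed. The study asked what mutant RIT1, a RAS-related GTPase mutated in Noonan syndrome, does in cardiac cells, and measured polyadenylated RNA by sequencing. Both groups were cells from the hearts of neonatal mice whose modified Rit1 gene expresses the M90I allele after Cre recombination, infected on day 3 after isolation. The AdGFP group (n = 3, genotype label Rit1 +/+) received an adenovirus encoding GFP. The AdCre group (n = 3, genotype label Rit1 M90I/+) received an adenovirus encoding GFP and Cre. No wild-type cells given Cre were among the samples, so Cre itself and the M90I allele cannot be told apart, and the values are sums over all cells of a culture.

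PGC-1α (Ppargc1a) and PGC-1β (Ppargc1b) are coactivators that bind no DNA themselves and work by docking on nuclear receptors, among them the PPARs, which sense fatty acids, and the estrogen-related receptors (ERRs), which need no known hormone. Together these factors drive the genes of fatty acid oxidation and of the respiratory chain, and NRF1 carries the signal on to TFAM, which packages and transcribes mitochondrial DNA. In heart muscle the set is known for the switch of the newborn myocyte from glucose to fatty acids as its main fuel.

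Ppargc1a stood at 63.4% of the AdGFP mean in AdCre. With all 6 samples its difference was the largest among the members, but that of Pparg was larger without AdGFP replicate 3 (-0.87 against -0.76), without AdCre replicate 2 (-0.85 against -0.79) and, with the block described below, without the samples numbered 3 (pair 3, -0.78 against -0.53). Esrrg, an estrogen-related receptor of tissues with a high energy demand such as heart muscle, came next among members whose groups did not overlap, at 71.5%. In the 7 other members tested the groups overlapped, and Ppara was too low to test. The decline of Ppargc1a passed the test only when the replicate number was taken into account (adjusted p = 0.0415 against 0.365 without, limma). Even then it did not pass on values rescaled to a common sum (TPM, 0.0612), without the filter on low genes (0.125), without the intensity trend (0.0943), or without pair 2 (0.117) or pair 3 (0.145).

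Each sample held 25.3 to 32.4 M recovered reads (M, megareads). The unit, FPKM, is fragments per kilobase of exon scaled to depth, and for exons adding up to 2 kb a value of 1 FPKM meant 49.3 to 64.1 reads. A gene was tested where its mean over the 6 samples was at least 0.5 FPKM, which left 13794 genes and 9 of the 10 members. A gene was called at an adjusted p under 0.05 in limma, on log2(FPKM + 0.1). Differences below are AdCre minus AdGFP on that scale, which understates those of low genes. Without the replicate number, 1 gene was called (0.00725%), and 0 of the 9 members, with 1402 genes and 1 member at an unadjusted p under 0.05. Across genes, samples with the same number deviated together, and with the number as a block the called genes were 484 lower (3.51%) and 364 higher (2.64%), and 1 of 9 members, Ppargc1a, was called lower and 0 higher. Rescaling to TPM (values scaled to a common sum in every sample) turned the share of higher genes among those block calls from 42.9% to 61.5%, and the median difference over all genes tested from -0.0022 to 0.087. The labels call the numbers biological replicates (Biol Rep 1 to 3) but do not say what samples with the same number share. The p-values measure the spread between these samples, whose sources the labels do not give.

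The cultures carried cardiomyocyte transcripts at high levels, and these moved too. The summed level of 10 cardiomyocyte markers ran from 4535 to 7533 FPKM in AdGFP and from 2901 to 4975 FPKM in AdCre, all 10 had a lower mean in AdCre, and 7 were called lower with the block. Markers of fibroblasts were also present (2601 to 4662 FPKM in AdGFP, 2287 to 3345 FPKM in AdCre, 3 of 9 called lower with the block). Endothelial markers summed to 90.7 to 139 FPKM and 134 to 197 FPKM (4 of 8 called higher), macrophage markers to 44.7 to 246 FPKM and 80.5 to 308 FPKM (1 of 6 tested called higher), and smooth muscle and pericyte markers to 819 to 1313 FPKM and 975 to 1208 FPKM (0 of 7 called). The 6 epicardial markers summed to 139 to 271 FPKM and 198 to 274 FPKM, with 4 of lower and 2 of higher sign (median difference -0.26), and the keratin Krt8, at 254% of the AdGFP mean, was the 1 called (higher). The 4 of lower sign were Msln, Upk3b, Upk1b and Wt1, from 39.4% (Msln) to 77.0% (Wt1) of their AdGFP means. The 6 adipocyte markers stayed at or below 0.269 FPKM with Lep at 0 throughout. With the block and without pair 1, 7 cardiomyocyte markers and 1 of fibroblasts were called lower, 3 endothelial markers and 1 of macrophages higher, and of the epicardial markers 3 lower and 2 higher (list median -0.76). Without pair 2, 5 cardiomyocyte markers and none of the other lists were called, and without pair 3 none was called (0 of 46 tested, limma). Over all 13794 genes tested, 772 were called without pair 1, 149 without pair 2 and 1 without pair 3. In such bulk samples, fewer cells of a type and less RNA per cell cannot be told apart, and the part of the cell mix in the differences below was not tested.

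**Figure D1:**
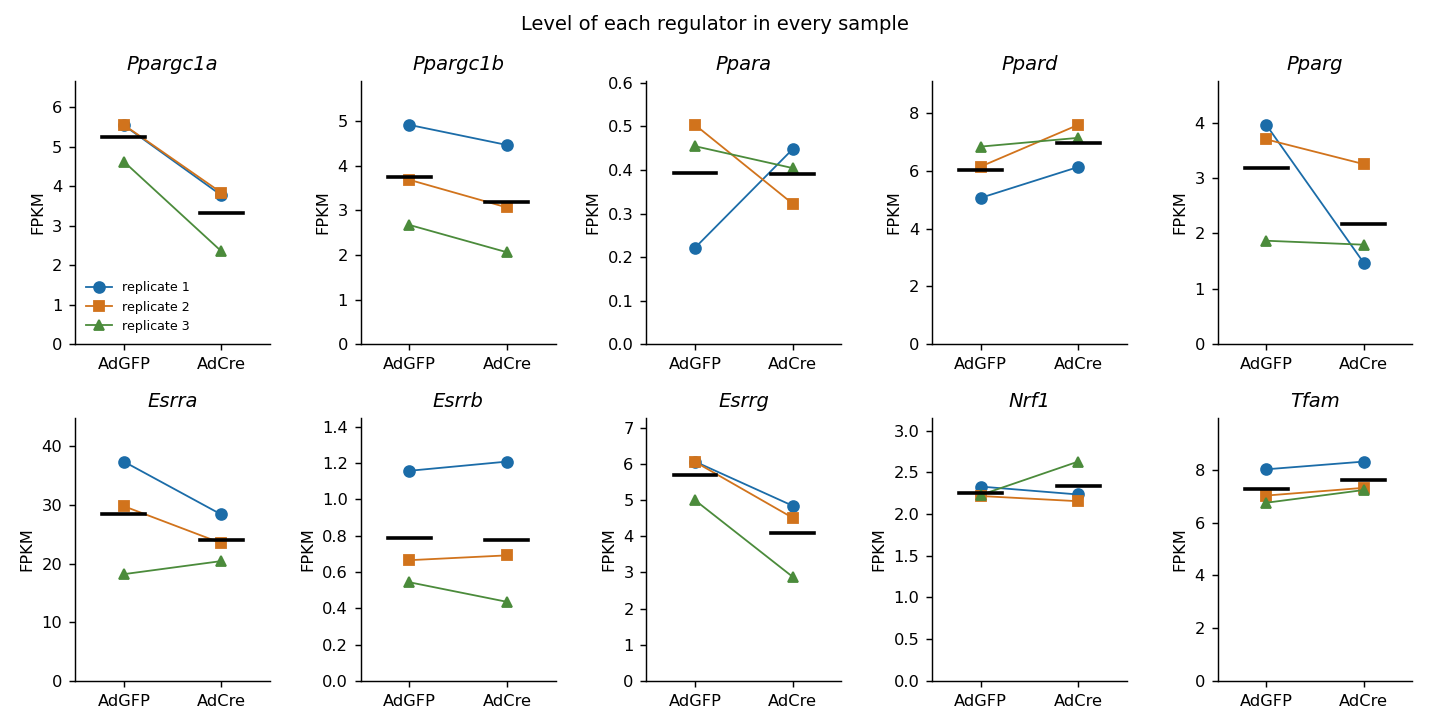
Level of each of the 10 regulators (FPKM, axis from 0) in every sample, with same-numbered AdGFP and AdCre samples joined by a line and black bars at the group means. Ppargc1a and Esrrg are the members whose AdCre samples all lie below all AdGFP samples.

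Of the coactivators, Ppargc1a (chromosome 5, 51454250 to 51567726, minus strand, GRCm38) stood at 5.54, 5.55 and 4.62 FPKM in AdGFP 1 to 3. In AdCre 1 to 3 it stood at 3.77, 3.84 and 2.35 FPKM, from 430 to 796 reads. Every AdCre sample was below every AdGFP sample, and AdCre replicate 3 was the lowest of the 6. The means were 5.24 ± 0.53 and 3.32 ± 0.84 FPKM (SD, n = 3 each), a difference of -0.67 with an SE of 0.12 in the fit with the block. Within replicate numbers 1, 2 and 3 the gap was -0.54, -0.52 and -0.94. The adjusted p from limma with the block was 0.0472 without pair 1. The exact two-sided permutation test gave p = 0.1, the smallest it can give for 3 samples against 3. Over all genes tested, 8.02% had non-overlapping groups with AdCre lower, as did 2 of the 9 members.

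The 249 bases before the annotated start of Ppargc1a are shown because it was the called member (RefSeq, GRCm38.p6, chr5:51567727-51567975, minus strand). Capitals mark CGTCA, the cyclic AMP response element half-site TGACG as read on the other strand, the kind of site through which CREB is known to act on this promoter. The second sequence, 30 bases ahead of the first of 4 Esrrg starts in the promoter table (chr1:187608974-187609003, plus strand), overlaps no annotated exon but lies inside the gene's annotated span, and has a MEF2 site in capitals. MEF2 factors are muscle regulators.
Ppargc1a: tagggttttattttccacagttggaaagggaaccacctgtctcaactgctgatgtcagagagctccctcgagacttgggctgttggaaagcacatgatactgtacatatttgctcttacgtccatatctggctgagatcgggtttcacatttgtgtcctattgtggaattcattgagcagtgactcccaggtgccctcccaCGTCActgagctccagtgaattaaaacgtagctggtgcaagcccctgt
Esrrg: taaaactttgCTATTTATAGtctacgcccg

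A window of 250 bases before and 50 after the start was given for 9 of the 10 members (16 windows, some members having several) and was searched on both strands. The half-site TGACG lay in 4 of the 16 windows (of Ppargc1a, Esrrb, Ppara and Ppard) and in 20.8% of all 32851 promoter windows. The full element TGACGTCA, which contains it, lay in 0 of the 16 and in 1.79% of all. The MEF2 site lay in 2 of the 16 windows (of Esrrg and Nrf1) and in 3.19% of all. The ERR element TCAAGGTCA (0.423% of all windows) and a direct repeat of AGGNCA with 1 base between, the PPAR element (0.381%), were found in no member's window. The shorter AGGTCA, held in the ERR element, lay in 2 windows of Pparg and in 16.3% of all. The NRF1 core GCGCANGC lay in 2 of the 16 windows (of Esrra and Ppara) and in 9.95% of all. The ETS site CCGGAAGT lay in 1 of the 16 (of Tfam) and in 3.89% of all. These are matches of letters and not binding measurements.

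Ppargc1b is the second coactivator, with 4.92, 3.69 and 2.67 FPKM in AdGFP 1 to 3. It had 4.47, 3.07 and 2.06 FPKM in AdCre 1 to 3. The groups overlapped, with replicate 1 the highest and replicate 3 the lowest in both, and AdCre was below AdGFP within each number. The difference was -0.25 (SE 0.11 with the block), with an adjusted p of 0.872 in limma and 0.226 with the block, and it became 0.021 without AdCre replicate 3 alone, which leaves pair 3 incomplete. With a whole pair left out it stayed between -0.31 and -0.20. The FPKM ratio of Ppargc1a to Ppargc1b ran from 1.13 to 1.73 in AdGFP and from 0.844 to 1.25 in AdCre. Being lower in all 3 pairs was shared by 4 of the 9 members tested and by 24.5% of all genes tested.

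Ppard, the ubiquitous PPAR, was the highest of the 3 PPARs, with 5.06, 6.15 and 6.84 FPKM in AdGFP and 6.13, 7.59 and 7.14 FPKM in AdCre. It was higher in AdCre within each number, but the groups overlapped and the difference of 0.21 (SE 0.095 with the block) had adjusted p-values of 0.726 and 0.243 in limma without and with the block. It was 0.094 without AdGFP replicate 1. Pparg, known mainly from fat cells and macrophages, had 3.96, 3.70 and 1.87 FPKM in AdGFP and 1.47, 3.25 and 1.80 FPKM in AdCre. Its difference of -0.54 (SE 0.27 with the block) came mostly from replicate number 1, where the gap was -1.37 against -0.18 and -0.054 in the other pairs. It was -0.12 without pair 1, -0.31 without AdCre replicate 1 alone, -0.87 without AdGFP replicate 3 and -0.85 without AdCre replicate 2, and it was called in neither fit (adjusted p = 0.712 and 0.290, limma). Adipocyte markers were near 0 in the same samples. Macrophage markers summed to 44.7, 191 and 246 FPKM in AdGFP 1 to 3 and to 80.5, 258 and 308 FPKM in AdCre 1 to 3. Which cells the Pparg transcripts came from was not tested.

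Ppara, the PPAR known for fatty acid oxidation in the adult heart, was the lowest member. It had 0.222, 0.504 and 0.455 FPKM in AdGFP, and 0.448, 0.323 and 0.405 FPKM in AdCre, from 21 to 55 reads per sample. It missed the level needed for testing, the groups overlapped, and the means were 0.393 and 0.392 FPKM. In the fit without the filter its difference was 0.040 (SE 0.38, adjusted p = 0.985, limma). Ppard exceeded Ppara by 12.2 to 22.9 times in AdGFP and by 13.7 to 23.5 times in AdCre on the FPKM scale.

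**Figure D2:**
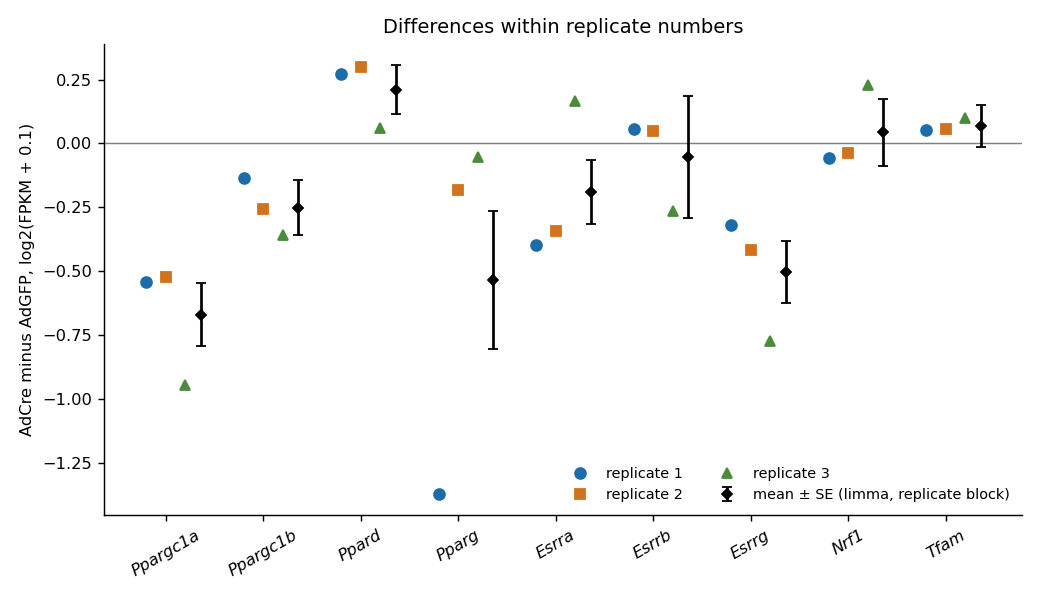
AdCre minus AdGFP within each replicate number on the log2(FPKM + 0.1) scale for the 9 members tested, with the mean and SE of the limma fit with the replicate block beside them. All 3 pairs of Ppargc1a, Ppargc1b, Esrrg and Pparg lie below 0, and those of Ppard and Tfam lie above 0.

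Of the ERRs, Esrrg (chromosome 1, 187608791 to 188214885, plus strand) had 6.07, 6.06 and 5.00 FPKM in AdGFP 1 to 3. It had 4.85, 4.52 and 2.88 FPKM in AdCre 1 to 3. No AdCre sample reached the lowest AdGFP sample, and replicate 3 was the lowest in both groups, as for Ppargc1a. The difference was -0.50 (SE 0.22, or 0.12 with the block), with pairs at -0.32, -0.42 and -0.77, and it was -0.28 without AdCre replicate 3. It was not called in limma (adjusted p = 0.503, and 0.0708 with the block). With the block and voom on the recovered reads, an alternative added after seeing the data, the adjusted p was 0.0437.

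Esrra, the main ERR by level, had 37.4, 29.8 and 18.2 FPKM in AdGFP and 28.4, 23.5 and 20.4 FPKM in AdCre. It was lower in AdCre in numbers 1 and 2 and higher in number 3, the groups overlapped, and the difference of -0.19 (SE 0.13 with the block) became 0.036 without AdGFP replicate 1 alone and -0.10 in TPM. With a whole pair left out it was -0.088, -0.12 and -0.37 (pairs 1, 2 and 3). Its adjusted p was 0.889 in limma, and 0.407 with the block. Esrra exceeded Esrrg by 3.64 to 6.16 times in AdGFP and 5.20 to 7.08 times in AdCre on the FPKM scale. Esrrb, known from stem cells and the inner ear, was low at 1.16, 0.665 and 0.543 FPKM in AdGFP and 1.21, 0.692 and 0.436 FPKM in AdCre. Its difference of -0.053 changed sign on rescaling to TPM (0.024) and without AdGFP replicate 1 (0.23), AdCre replicate 3 (0.26) or pair 3 (0.053).

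NRF1 and TFAM, the factors that link nuclear genes to mitochondrial DNA, had the smallest spread among the 10 members, with the highest sample of a group at 1.05 and 1.22 times the lowest for Nrf1 and at 1.19 and 1.15 times for Tfam, in AdGFP and AdCre. Nrf1 had 2.33, 2.22 and 2.23 FPKM in AdGFP and 2.23, 2.15 and 2.63 FPKM in AdCre, with a difference of 0.044 (SE 0.15) that was -0.040 without AdCre replicate 3, -0.048 without pair 3, 0.13 in TPM and 0.11 with voom. Tfam had 8.02, 7.03 and 6.76 FPKM in AdGFP and 8.32, 7.32 and 7.24 FPKM in AdCre. It was higher in AdCre within each number by 0.051, 0.058 and 0.098, and the adjusted p was 0.916 in limma and 0.654 with the block. The mean difference of Tfam was 0.069, and from 0.0059 (without AdCre replicate 1) to 0.14 (without AdGFP replicate 1) with 1 sample left out, while it was 0.16 in TPM and 0.13 with voom. The groups overlapped for both genes. In AdGFP, the members fell in the order Esrra (28.5 FPKM), Tfam (7.27), Ppard (6.01), Esrrg (5.71), Ppargc1a (5.24), Ppargc1b (3.76), Pparg (3.18), Nrf1 (2.26), Esrrb (0.789) and Ppara (0.393). The ranges of neighbours overlapped from Tfam to Nrf1, and did not between Esrra and Tfam, Nrf1 and Esrrb, or Esrrb and Ppara. In AdCre, Nrf1 (2.34 FPKM) stood ahead of Pparg (2.17), the ranges of Ppard (6.95) and Esrrg (4.08) did not overlap, and those of Esrrb (0.779) and Ppara (0.392) did.

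The difference of Ppargc1a was less negative than the median of the cardiomyocyte markers in each pair. Their median difference was -0.92, -0.69 and -1.01 in numbers 1, 2 and 3, against -0.54, -0.52 and -0.94 for Ppargc1a and -0.32, -0.42 and -0.77 for Esrrg. The 3 protein-coding genes whose centred log2 profile over the 6 samples was nearest to that of Ppargc1a were Nkx2-5, Myocd and Ndrg2, with root mean square differences of 0.047, 0.070 and 0.084. Nkx2-5 and Myocd encode cardiac transcription regulators. Nkx2-5 had 80.7, 77.8 and 61.3 FPKM in AdGFP and 51.9, 51.7 and 33.9 FPKM in AdCre, a difference of -0.69.

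**Figure D3:**
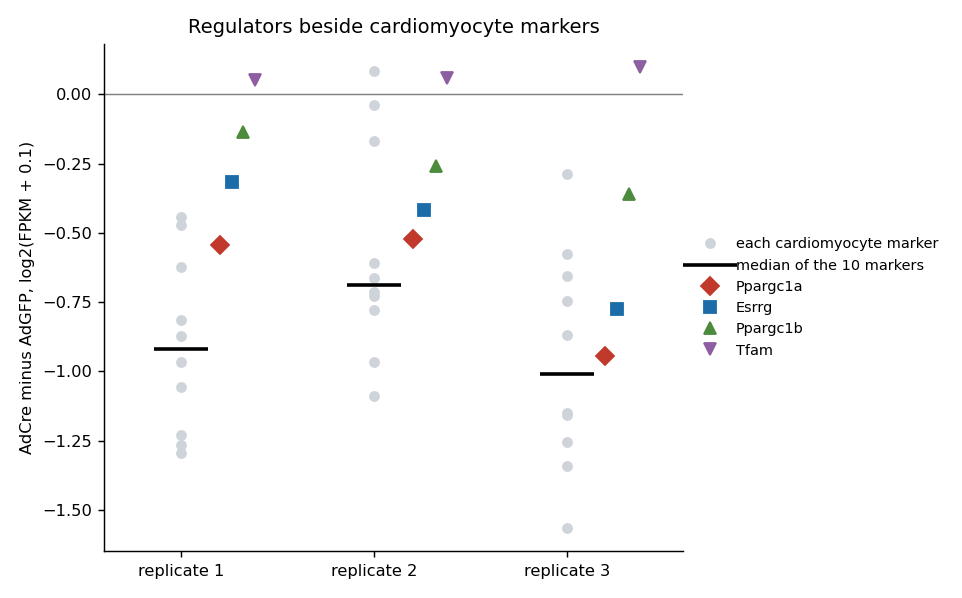
AdCre minus AdGFP within each replicate number (log2(FPKM + 0.1)) for the 10 cardiomyocyte markers (grey points, with their median as a black bar) and, to the right of each, for Ppargc1a, Esrrg, Ppargc1b and Tfam. Ppargc1a lies above the marker median in each number, nearest to it in number 3, and Tfam lies just above 0.

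Of 25 partners and regulators (RXRs, coregulators and upstream kinases and factors), 24 were tested, 0 were called without the block and 1 was called lower with it, close to the 3.51% of all genes. Their median difference was -0.0016, against -0.0022 over all genes tested, and in TPM both were 0.087. Perm1, a muscle protein induced by PGC-1 and ERR that acts on the same genes, fell from 5.36, 6.59 and 4.36 FPKM in AdGFP to 2.78, 5.18 and 2.20 FPKM in AdCre in the fit with the block. The groups overlapped through AdCre replicate 2, and the difference was -0.74 (adjusted p = 0.0492 with the block and 0.505 without, limma), with 0.0920, 0.0642 and 0.192 without pairs 1, 2 and 3 and 0.0587 in TPM. The acetyltransferase Kat2a, which represses PGC-1α, had a difference of 0.48 (adjusted p = 0.467) and the coactivator Ncoa1 of -0.34 (adjusted p = 0.486), and neither pair of groups overlapped.

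**Figure D4:**
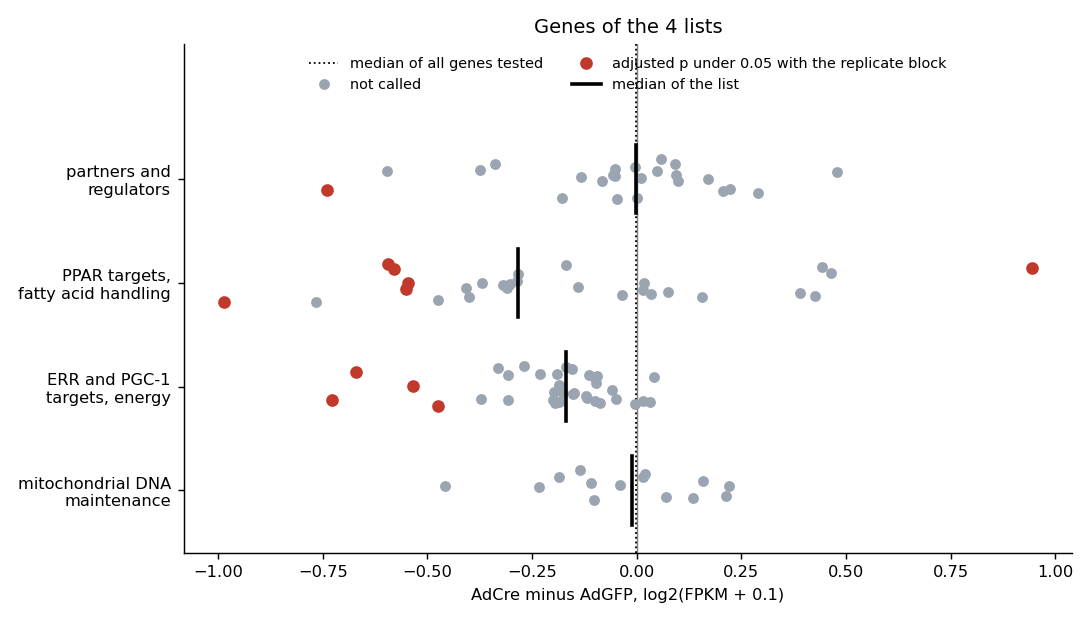
Difference between AdCre and AdGFP (log2(FPKM + 0.1)) for each tested gene of the 4 lists, with the list medians as black bars, the median of all genes tested as a dotted line and genes called with the replicate block in red. The medians of the PPAR and ERR target lists lie at -0.28 and -0.17, and 10 of the 11 called genes lie below 0.

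The PPAR target genes of fatty acid handling were 28 tested of 32, with 0 called without the block, and 5 called lower (3.51% of all genes) and 1 higher (2.64%) with it. Their median difference was -0.28 (-0.20 in TPM), and 15 of the 28 were lower in all 3 pairs, against 24.5% of all genes. Cd36, the fatty acid transporter of the cell surface, fell from 25.5, 45.9 and 33.4 FPKM to 12.03, 24.0 and 17.2 FPKM in the fit with the block (difference -0.99, adjusted p = 0.00969, limma). Lpl, which frees fatty acids from lipoproteins, fell by 0.58 (adjusted p = 0.0198), and the β-oxidation enzymes Acadm and Acaa2 fell by 0.59 and 0.55 (adjusted p = 0.0351 and 0.0364). In TPM the call of Acaa2 was lost (0.0605). Angptl4, a secreted inhibitor of lipoprotein lipase, rose from 13.5, 8.88 and 6.22 FPKM to 21.8, 15.6 and 15.9 FPKM (difference 0.94, adjusted p = 0.0271), and no sample overlapped. Plin2, which coats lipid droplets, had a difference of 0.43 with an adjusted p of 0.0729 in limma with the block. Without pair 3, 0 of the 28 were called, when only 1 of all 13794 genes was. The count without pair 2 was 1, Cd36, against 149 of all genes.

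The ERR and PGC-1 target genes of mitochondrial energy production were 35 tested of 35, with 0 called without the block and 4 lower with it (3.51% of all genes). Their median difference was -0.17 against -0.0022 over all genes, and -0.080 against 0.087 in TPM. A negative sign was seen in 32 of 35, against 50.4% of all genes tested, and 28 were lower in all 3 pairs, against 24.5%. The called genes were Cox6a2, Cox7a1 and Cox8b, which are the heart and muscle forms of cytochrome c oxidase subunits, and Ckmt2, the mitochondrial creatine kinase of striated muscle. Cox7a1 fell from 105, 109 and 70.7 FPKM to 67.2, 71.5 and 41.4 FPKM (difference -0.67, adjusted p = 0.0158 with the block, limma), and Ckmt2 fell by 0.73 (adjusted p = 0.0364). Cox6a2 and Cox8b fell by 0.48 and 0.53 (adjusted p = 0.0284 and 0.0286), and in TPM the call of Cox6a2 was lost (0.0508). Etfdh, which passes electrons from fatty acid oxidation to ubiquinone, had a difference of -0.31 (adjusted p = 0.0809). Among widely expressed members, Cs, which encodes citrate synthase, was at -0.049 and Atp5b of the ATP synthase at -0.096. Without pair 3, 0 of the 35 were called, when only 1 of all 13794 genes was. The count without pair 2 was 1, Ckmt2, against 149 of all genes. It was 3 without pair 1, against 772 of all genes, with the call of Ckmt2 lost (0.0542).

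Of 14 genes of mitochondrial DNA maintenance and transcription, the genes nearest to TFAM in function, all 14 were tested and 0 were called in limma with or without the block, with 0 at an unadjusted p under 0.05 without it. Their median difference was -0.012, and 0.075 in TPM, where that of all genes was 0.087. The protease Lonp1, which degrades TFAM, had 149, 107 and 71.5 FPKM in AdGFP and 88.4, 92.1 and 54.0 FPKM in AdCre, a difference of -0.46 with an adjusted p of 0.0775 with the block. The helicase Twnk and the factor Mterf3 had differences of 0.22 and -0.23 (adjusted p = 0.194 and 0.222 with the block).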

How the data were processed

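The authors deposited FPKM values (fragments per kilobase of exon, scaled to depth), with each of the 6 samples in its own column and none pooled. The submitters' processing notes name fastp, STAR 2.5, HTSeq 0.6.1 and mm10, and the annotation, strand setting and FPKM step are not given in the sources used here. Symbols and exon lengths came from GENCODE M21 (54495 of 54532 IDs matched). FPKM times exon length gave whole multiples of 1 step per sample for 98.3 to 98.6% of values under 20 reads (tolerance 0.02), which gives the reads quoted. The depth scaling behind FPKM was 93.1, 97.5 and 97.5% of those reads in AdGFP 1 to 3. In AdCre 1 to 3 it was 98.8, 99.4 and 102.6%. It was thus larger in every AdCre sample than in any AdGFP sample, which lowers AdCre values relative to AdGFP. No column was left out. Among the members, only exons of Esrra overlapped those of other genes, by 2.07% on the same strand and 1.66% on the opposite strand.

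limma 3.58.1 (R 4.3.3) was run on log2(FPKM + 0.1) with an intensity trend, on genes whose mean reached 0.5 FPKM, with Benjamini-Hochberg adjustment over all of them. The pipeline was tested on simulated data with 200 of 13794 genes changed 2-fold. With no pair effect, 72.5% of them were recovered without the block and 68.0% with it. With a pair effect (SD 0.3 on the log2 scale), 0% were recovered without the block, and its 2 calls were false. The fit with the block then recovered 71.5%, and 8.33% of its calls were false. The study's methods state no test for these data. Same-numbered samples correlated in their deviations from the group means at 0.568, 0.268 and 0.506 (other combinations -0.497 to 0.036), so samples were treated as paired by number, a choice that the values alone back, and blocked values are given where they change a call. No library was a copy of another (chi-square over degrees of freedom of 26.3 to 81.8 within groups). Members, lists and markers were chosen with earlier results of these data known. Genes named are the members, from each list the 5 called genes with the smallest p or, with none called, 3, in both fits, and the 3 nearest profiles. Acsl1 is the called gene left unnamed by that rule, and Cs and Atp5b were picked after their values were seen. Figures and tables used Python 3.11.15. Depth limits genes with few reads, and intervals were not computed on reads.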

Additional observations from a re-analysis of the deposited data

How the results depend on the processing

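The unblocked count of 1 called gene was 3 with a pseudocount of 1, 4 without the trend, 0 without the filter, 0 with voom on recovered reads and between 0 and 2 when 1 sample was left out. The replicate block raised the genes called from 1 to 848, the members called from 0 to 1 and the list genes called from 0 to 11, and changed no call of another member. With the block, the genes called were 17 without the filter, 0 without the trend, 1739 with voom, 772 without pair 1, 149 without pair 2 and 1 without pair 3. Of the members, 0 were called with the block without the filter, after rescaling to TPM, without the trend, and without pair 2 or pair 3, and 2 with voom. The list genes called with the block were 1 without the filter, 0 without the trend, 8 in TPM, 21 with voom, 10 without pair 1, 2 without pair 2 and 0 without pair 3. The adjusted p of Ppargc1a with the block was 0.125 without the filter, 0.0612 in TPM, 0.0943 without the trend, 0.117 without pair 2 and 0.145 without pair 3. All alternatives with the block, and voom, were chosen after seeing the data. The cause of these differences was not tested.

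Among the members, signs reversed for Esrrb in TPM (0.024) and with voom (0.019). When 1 sample was left out of the fit without the block, which leaves its pair incomplete, the difference ran from -0.52 to 0.021 for Ppargc1b (above 0 without AdCre replicate 3), from -0.48 to 0.036 for Esrra (above 0 without AdGFP replicate 1), from -0.39 to 0.26 for Esrrb (above 0 without AdGFP replicate 1, at 0.23, and without AdCre replicate 3) and from -0.040 to 0.098 for Nrf1 (below 0 without AdCre replicate 3). It ran from -0.87 to -0.31 for Pparg, from 0.094 to 0.31 for Ppard and from 0.0059 to 0.14 for Tfam. With the block and a whole pair left out, it ran from -0.31 to -0.20 for Ppargc1b, from -0.37 to -0.088 for Esrra, from -0.11 to 0.053 for Esrrb, from -0.048 to 0.095 for Nrf1, from -0.78 to -0.12 for Pparg, from 0.17 to 0.29 for Ppard and from 0.055 to 0.078 for Tfam, so that signs changed for Esrrb and Nrf1 (both without pair 3). In TPM, the difference was 0.13 for Nrf1, 0.16 for Tfam and -0.10 for Esrra. Ppargc1a stayed between -0.79 and -0.45, and Esrrg between -0.64 and -0.28, over 15 alternatives. Motif matches were in 10 of 16 windows on both strands and in 9 on the given strand.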
